A study of Mus musculus with 12 samples.

Results

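The 10 genes described here encode the core of the Bcl2 family, the proteins that decide whether a stressed cell opens its mitochondria and dies. They were found as the rows of the deposited count table named Bax, Bak1, Bcl2, Bcl2l1, Mcl1, Bid, Bad, Bcl2l11, Bbc3 and Pmaip1, so they are 10 of 35976 genes in the table. The membership rule used no measured value, and all 10 were among the 16166 genes abundant enough to be tested. By their textbook roles 7 members are pro-death and 3, Bcl2, Bcl2l1 and Mcl1, are pro-survival. RNA was sequenced from primordial germ cells, which give rise to eggs, taken from female mouse embryos at E14.5 (days after conception) and sorted by green fluorescence from an Oct4-GFP reporter, used for all 4 groups. The groups held 3 libraries each: WT, wild type; HxD, genotype Tet1HxD/HxD, a catalytically dead Tet1; V, genotype Tet1V/V, a Tet1 that stalls at 5hmC (5-hydroxymethylcytosine); and KO, genotype Tet1-/-, the knockout. TET1 is an enzyme that oxidizes methylated cytosine. The labels do not say that replicate libraries stem from different embryos or litters. The p-values thus reflect only how far replicate libraries spread, and part of that spread may be technical.

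In this pathway the effector proteins BAX and BAK1 form pores in the outer mitochondrial membrane, and the cytochrome c released through them starts the caspase cascade. BCL2, BCL2L1 (BCL-X) and MCL1 hold the effectors back. The BH3-only proteins BID, BAD, BCL2L11 (BIM), BBC3 (PUMA) and PMAIP1 (NOXA) relay stress signals by binding to other members of the family. In germ cells of the mouse embryo, loss of Bcl2l1 function is known to deplete the primordial germ cells, and removing Bax is known to spare them. Many female germ cells die before birth around the time they enter meiosis, and for this reason the balance of these genes is followed in the fetal ovary. Much of that control acts on the proteins, by cleavage, phosphorylation, degradation and binding, which RNA levels do not measure.

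Because TET1 acts on cytosines that are followed by guanine, the starts of Bax and Bcl2, the pair whose ratio is the classical death-to-survival measure, are shown with every such CpG in capitals. Each window runs 5′ to 3′ on the gene's own strand from 250 bases before to 50 bases after the annotated start (RefSeq, GRCm38.p6). Bax lies at chr7:45466849-45467148 and Bcl2 at chr1:106714241-106714540, both on the minus strand.

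Bax: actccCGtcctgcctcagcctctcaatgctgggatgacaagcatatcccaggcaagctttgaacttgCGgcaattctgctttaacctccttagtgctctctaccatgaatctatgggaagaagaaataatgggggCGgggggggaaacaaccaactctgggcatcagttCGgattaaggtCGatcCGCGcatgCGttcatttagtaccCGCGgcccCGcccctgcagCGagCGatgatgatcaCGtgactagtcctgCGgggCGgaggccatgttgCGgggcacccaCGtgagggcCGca

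Bcl2: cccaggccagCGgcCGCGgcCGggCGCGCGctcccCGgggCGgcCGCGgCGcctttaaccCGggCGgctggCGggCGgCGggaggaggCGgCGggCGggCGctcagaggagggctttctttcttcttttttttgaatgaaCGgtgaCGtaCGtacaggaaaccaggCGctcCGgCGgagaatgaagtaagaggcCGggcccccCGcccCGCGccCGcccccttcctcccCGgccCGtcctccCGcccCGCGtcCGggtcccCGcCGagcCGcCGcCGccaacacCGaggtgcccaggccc

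The Bax window held 19 CpG sites and the Bcl2 window 44, against a median of 7 over 32851 windows of the same table, so Bcl2 stood at percentile 98.1 for CpG number. RefSeq windows were examined for 9 of the 10 members, and that of Pmaip1 is not reported here. Mcl1 had 33 sites, Bid 22 and Bak1 11. Among members with several annotated starts, Bad had 27 and 21, Bcl2l11 27 and 38, Bbc3 34, 30 and 39, and Bcl2l1 1, 14 and 22. The E-box CACGTG, which reads the same on both strands, occurred in the Bax window at 2 places, 9 bases before the start and at base 36 after it, and 7.15% of all windows held at least 1. Bbc3 had 1 in the window of 1 of its starts, and no window examined for another member held these letters. A match to the p53 half-site consensus, searched on both strands, lay 201 bases before the Bax start. None lay in the other member windows examined, which do not include Pmaip1, and 8.36% of all windows held 1. Such matches describe letters only, and no methylation or binding was measured here.

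Values are given in CPM, a gene's count scaled to a common library total with TMM factors (trimmed mean of M-values). Library totals ranged from 18471158 to 29495313 counts, and the genes with a count from 12568 (KO3) to 17614 (HxD3). 4 libraries stood apart in how many genes they missed. Among genes averaging 1 to 5 CPM, 45.9% were at 0 in KO3, 43.7% in HxD1, 27.3% in KO1 and 24.5% in V2, compared with 1.80% to 20.8% in the other libraries. Tet1 itself was read at 91.4 to 215 CPM in WT and 80.8 to 158 CPM in KO, which edgeR did not call (log2 fold change -0.40, adjusted p = 0.484). A count over the whole gene does not show which exons were read, so it checks nothing about the deletion, and the groups are named as labelled. Summed over 10 germ cell markers (Ddx4, Dazl, Pou5f1 and others), every library held 3444 to 4212 CPM. The similar sums do not mean unchanged markers, as 8 of the 10 had an estimate above 0 in each mutant. Of these germ cell markers edgeR called 1 lower in HxD, and 1 higher and 1 lower in both KO and V. For the mutant mean it called 3 higher and 1 lower. Of the lists for gonadal somatic cells, endothelium, red blood cells, leukocytes and mesonephric epithelium, the highest sum in any library was 37.0 CPM. The sum of 10 meiotic genes (Stra8, Sycp3, Dmc1 and others) was 1655 to 3666 CPM in WT and 612 to 1258 CPM in the 9 mutant libraries, without overlap. edgeR called 1 of these 10 lower in HxD, 7 in KO, 3 in V and 9 for the mutant mean. Over all 16166 tested genes it called 4, 80, 14 and 103 lower in the same order. All 10 meiotic estimates were below 0 in each mutant. The part of this difference in the results for the death regulators was not tested. In bulk samples, fewer cells of a type and less RNA per cell cannot be told apart.

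No Bcl2 family member was called different from WT in any Tet1 mutant. At an adjusted p under 0.05 (edgeR quasi-likelihood F test, two-sided, Benjamini-Hochberg over 16166 genes), 0 of 10 members were called in HxD, where 0.0309% of all tested genes were. The count was also 0 of 10 in KO, with 1.22% of all genes called, in V, with 0.155%, and for the mean of the 3 mutants against WT, with 1.22%. DESeq2 and limma-voom likewise called 0 of 10 in each of these comparisons. At an unadjusted p under 0.05 edgeR listed 1 member in HxD (Bax; 7.25% of all genes), 2 in KO (Bad and Bax; 13.2%), 2 in V (Bax and Bid; 9.69%) and 1 for the mutant mean (Bax; 13.2%). The libraries of mutant and WT did not overlap for 0 of 10 members in HxD, against 12.2% of all genes, for 1 in KO (Pmaip1; 16.5%) and for 1 in V (Bax; 16.2%). The comparisons share the WT libraries and are therefore not independent of one another. A missed threshold does not show equal levels, and the intervals below give what the 3 libraries a group allowed.

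**Figure D1:**
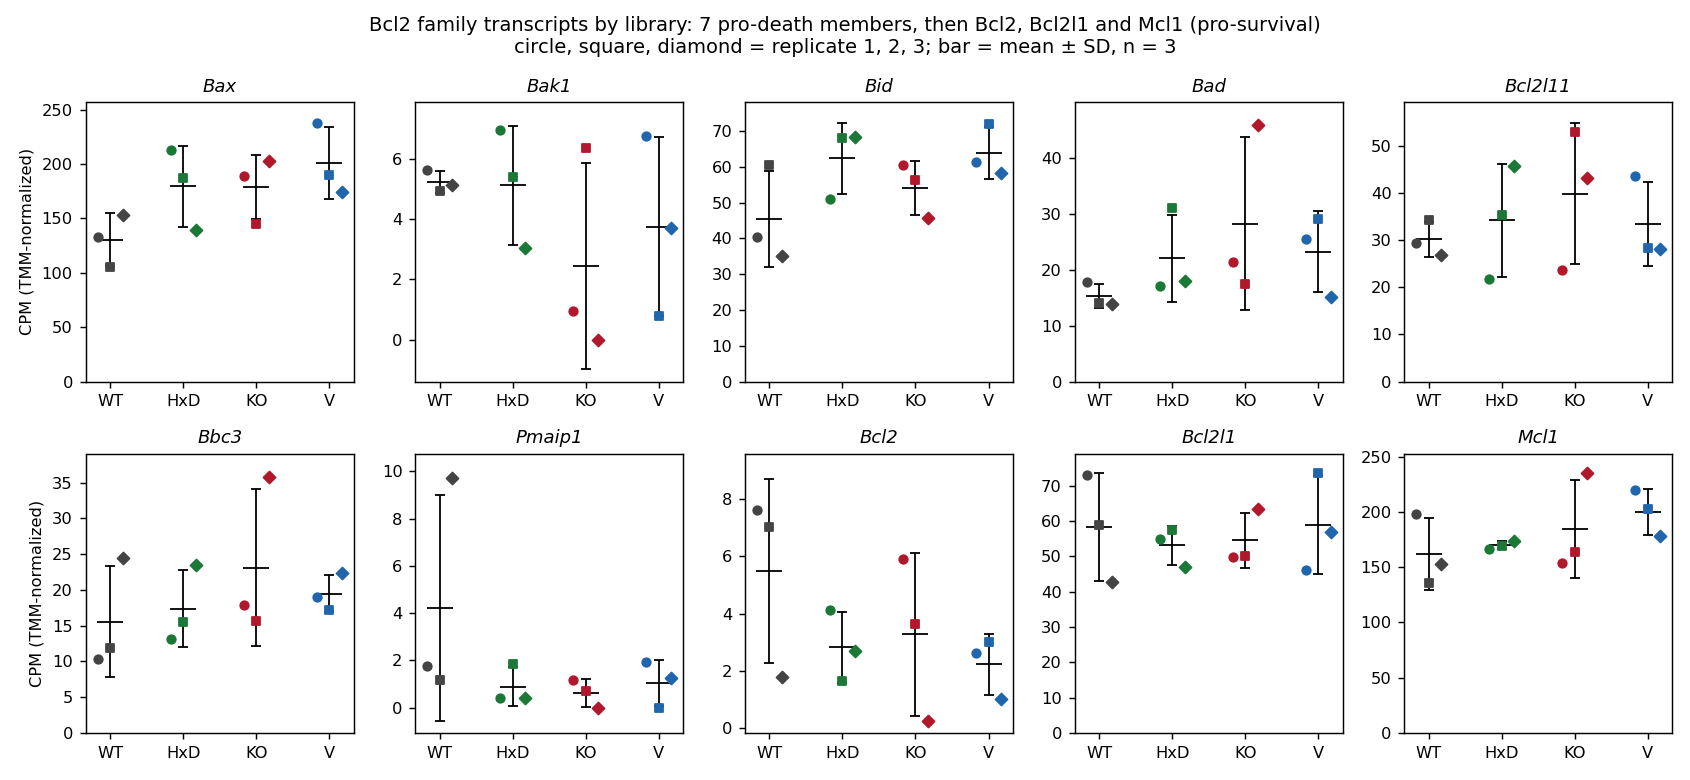
CPM (y axis, linear, TMM-normalized) of each of the 10 members in the 12 libraries by group (x axis), with 1 point per library and bars for mean ± SD (n = 3). Bax in V lies between 175 and 238 CPM, above all 3 WT libraries, and Bak1, Pmaip1 and Bcl2 stay below 10 CPM in every library.

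The effector Bax was the most abundant member per length of annotated exon, taken as the union of a gene's exons. Per kilobase Bax stood at 150.5 ± 28.1 CPM per kb in WT (SD, n = 3), ahead of Mcl1 at 47.5 ± 9.51 CPM per kb, and their WT libraries did not overlap. The order rests on union lengths of 867 bases for Bax and 3418 for Mcl1. In CPM alone the WT mean was higher for Mcl1, at 162, than for Bax, at 130. Bid (20.7 ± 6.14 CPM per kb) and Bcl2l1 (15.0 ± 3.91) followed and overlapped each other. Below them came Bbc3 (8.58 ± 4.28 CPM per kb), Bad (6.36 ± 0.900) and Bcl2l11 (4.39 ± 0.546), of which Bbc3 overlapped both Bcl2l1 and Bad. The lowest levels belonged to Bak1 (2.19 ± 0.152 CPM per kb), Pmaip1 (1.54 ± 1.75) and Bcl2 (0.599 ± 0.351), where Pmaip1 overlapped both neighbours. On this per-length scale Mcl1 was the highest of the pro-survival transcripts in WT and Bcl2 the last of the 10 by its mean.

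Bax was read at 133, 105 and 154 CPM in WT1, WT2 and WT3. In HxD it was at 213, 187 and 139 CPM, in KO at 189, 145 and 203 CPM, and in V at 238, 190 and 175 CPM, always in the order of replicates 1 to 3. Thus 7 of 9 mutant libraries lay above all WT libraries, HxD3 and KO2 lay inside the WT range, and no mutant library lay below it. The estimated log2 fold change was 0.46 ± 0.20 (SE) in HxD (edgeR adjusted p = 0.640), 0.45 ± 0.20 in KO (0.315) and 0.62 ± 0.20 in V (0.231). For the mean of the mutants it was 0.51 ± 0.17 with a 95% interval of 0.17 to 0.85, and the adjusted p of 0.137 from edgeR missed the threshold. Intervals here and below are for single genes and carry no correction for the number of genes tested. The Bax estimate was above 0 under every alternative run. In KO it was 0.15 without HxD1, KO1 and KO3, a fit that leaves KO2 as the only KO library. For the mutant mean the lowest adjusted p over the alternative runs was 0.0754 (edgeR, DESeq2 or limma-voom).

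Bak1, the other effector, was low. The WT libraries lay close together at 5.63, 4.92 and 5.14 CPM, whereas HxD gave 6.94, 5.38 and 3.02 CPM, KO 0.95, 6.34 and 0.00 CPM and V 6.74, 0.80 and 3.68 CPM. Mutant libraries fell on both sides of WT, with 3 above and 5 below its range. The count of 0 in KO3 allows up to 0.132 CPM there (3 counts, counting error only). The 3 lowest libraries for Bak1, KO3, V2 and KO1, were among the 4 with the largest share of genes at 0, but HxD1, the other of these 4, had the highest Bak1 value. The fitted log2 differences were -0.033 ± 1.27 in HxD, -1.11 ± 1.29 in KO and -0.49 ± 1.27 in V, all with an adjusted p of 0.778 or above (edgeR). For KO the 95% interval ran from -3.74 to 1.53, so these libraries gave the difference no settled direction. Without HxD1, KO1 and KO3 the estimate was 0.28, which rests on KO2 as the only KO library.

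Among the BH3-only genes, Bid encodes the protein that caspase-8 cleaves to link death receptors to mitochondria. It was read at 40.4, 60.6 and 35.1 CPM in WT, 51.0, 68.0 and 68.2 in HxD, 60.5, 56.3 and 45.8 in KO, and 61.4, 72.0 and 58.3 in V. WT2 lay inside the range of every mutant group or above it, and 4 of 9 mutant libraries were above all WT libraries. The log2 fold change was 0.46 ± 0.24 in HxD, 0.26 ± 0.24 in KO and 0.49 ± 0.24 in V, with edgeR adjusted p of 0.719, 0.696 and 0.511. These values moved with the WT libraries: without WT3 they were 0.31, 0.10 and 0.34, and without WT2 0.72, 0.52 and 0.76.

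Bad, whose product is kept inactive by growth factor signalling, was at 17.7, 14.1 and 13.9 CPM in WT. HxD gave 17.1, 31.0 and 17.9 CPM, KO 21.3, 17.5 and 45.8 CPM, and V 25.4, 29.0 and 15.1 CPM. The 6 mutant libraries above the WT range came 2 from each mutant, and none lay below it. The KO estimate of 0.89 ± 0.40 on the log2 scale (edgeR adjusted p = 0.334) leaned on KO3 and was 0.35 without it. It was 0.20 without HxD1, KO1 and KO3, where KO2 was the only KO library. HxD and V gave 0.53 ± 0.40 and 0.61 ± 0.40 (edgeR adjusted p 0.882 and 0.666), and the HxD value was 0.20 without HxD2.

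Bcl2l11 encodes BIM, a BH3-only protein set by growth factor withdrawal. Its WT values were 29.4, 34.4 and 27.0 CPM, beside 21.8, 35.3 and 45.7 CPM in HxD, 23.7, 52.96 and 43.2 CPM in KO and 43.7, 28.4 and 28.2 CPM in V. Every mutant group overlapped WT, with 5 mutant libraries above and 2 below it. The mutant mean differed by 0.24 ± 0.27 on the log2 scale (95% interval -0.30 to 0.79, edgeR adjusted p = 0.770).

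Bbc3 and Pmaip1 are direct p53 targets. Bbc3 was at 10.4, 11.8 and 24.5 CPM in WT, 13.2, 15.5 and 23.5 in HxD, 17.9, 15.7 and 35.8 in KO, and 19.0, 17.1 and 22.3 in V. WT3 was above all mutant libraries but KO3, so the groups overlapped, and the mutant mean differed by 0.35 ± 0.35 on the log2 scale (edgeR adjusted p = 0.737). That estimate was 0.84 without WT3 and 0.13 without WT1. Pmaip1 was low, at 1.91 CPM or below in every library but WT3. It was read at 1.75, 1.17 and 9.72 CPM in WT, 0.39, 1.83 and 0.41 in HxD, 1.14, 0.70 and 0.00 in KO, and 1.91, 0.00 and 1.24 in V. Only in KO were all 3 libraries below the 3 of WT, by 1.14 against 1.17 CPM at the nearest point, and in HxD and V the groups overlapped. The fitted log2 differences of -2.26 ± 2.05, -2.76 ± 2.09 and -2.004 ± 2.03 in HxD, KO and V, with adjusted p of 0.953, 0.596 and 0.871 (edgeR), came down to -0.74, -1.24 and -0.48 without WT3. Counts of 0 allowed up to 0.132 CPM in KO3 and 0.0996 CPM in V2, by counting error only.

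Of the pro-survival genes, Bcl2 was the least abundant and the most spread. WT had 7.63, 7.04 and 1.79 CPM, HxD 4.12, 1.67 and 2.69 CPM, KO 5.91, 3.64 and 0.26 CPM, and V 2.64, 3.02 and 1.03 CPM. All 9 mutant libraries lay below WT1 and WT2, but WT3 was lower than 6 of them, so every mutant group overlapped WT. The log2 difference was -0.96 ± 1.25 in HxD, -0.74 ± 1.25 in KO and -1.30 ± 1.26 in V, and the edgeR adjusted p was 0.861 or above in each. Leaving out single libraries moved the KO value from -1.49 (without KO1) to -0.20 (without KO3). For the mutant mean the 95% interval ran from -2.98 to 0.98, and the estimate of -0.999 became -1.42 without WT3 (edgeR adjusted p 0.725 and 0.567).

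Bcl2l1 and Mcl1 were measured more closely. Bcl2l1, encoding BCL-X, was at 73.2, 59.0 and 42.8 CPM in WT, 54.8, 57.6 and 46.9 in HxD, 49.9, 50.2 and 63.4 in KO, and 46.3, 73.8 and 56.9 in V. All but 1 mutant library (V2) lay inside the WT range. The mutant mean differed from WT by -0.072 ± 0.20 on the log2 scale, and the 95% interval of -0.48 to 0.33 bounds the difference that these libraries leave room for. Mcl1, a short-lived protein that oocytes are known to need, was at 198, 135 and 153 CPM in WT, 167, 169 and 174 in HxD, 154, 164 and 235 in KO, and 220, 202 and 178 in V. V1, V2 and KO3 were above all WT libraries and no mutant library was below them. The log2 difference was 0.18 ± 0.16 for the mutant mean (95% interval -0.14 to 0.50), with edgeR adjusted p of 0.932 for Bcl2l1 and 0.669 for Mcl1.

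**Figure D2:**
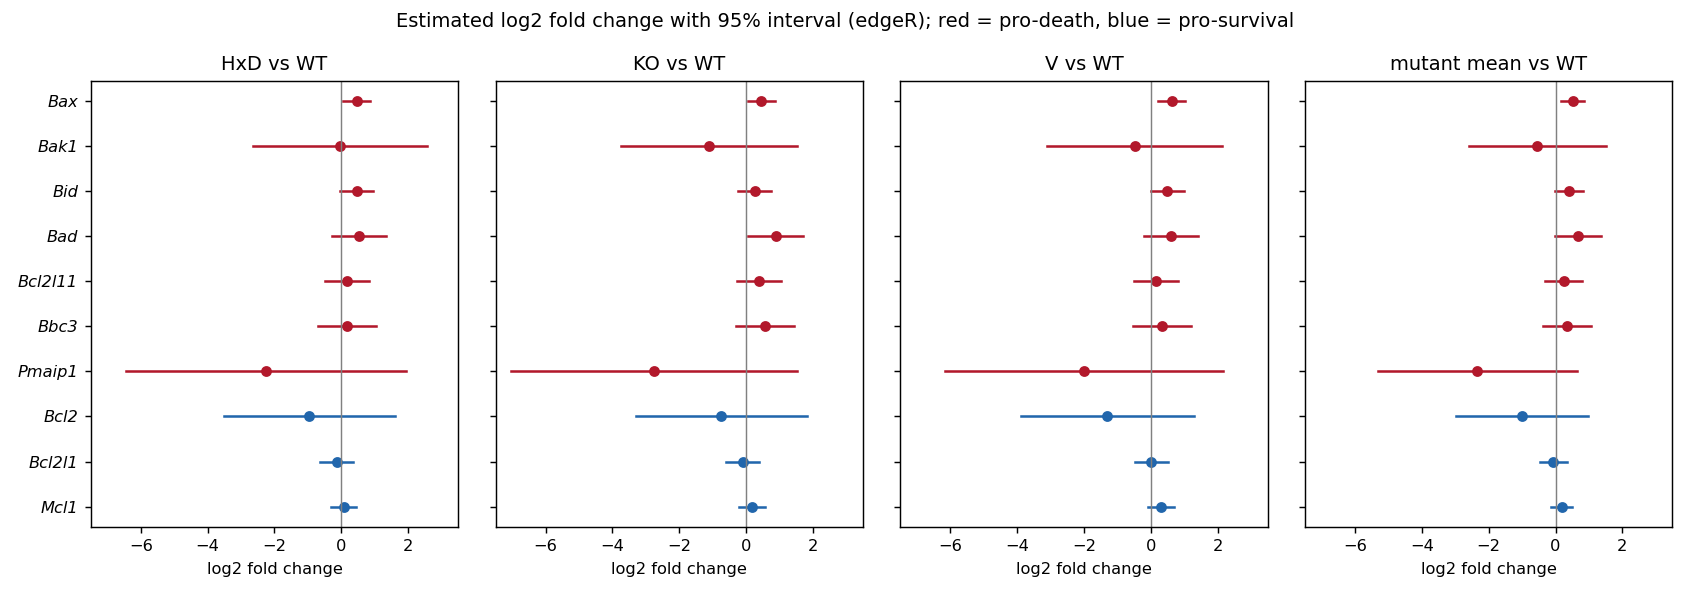
Estimated log2 fold change (x axis) of each member (y axis) against WT in HxD, KO, V and the mutant mean, with 95% intervals from edgeR; red marks pro-death and blue pro-survival members. The Bax intervals lie above 0 in all 4 panels before any adjustment for multiple testing, and those of Bak1, Pmaip1 and Bcl2 span several log2 units.

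The pro-death and pro-survival members were set side by side by their estimates. In each of the 3 mutants 5 of 7 pro-death members had an estimate above 0, the exceptions being Bak1 and Pmaip1. The pro-death median log2 difference was 0.18 in HxD, 0.40 in KO and 0.32 in V. The medians of the 3 pro-survival members were -0.14, -0.10 and 0.02. Over all tested genes the medians were -0.0071, -0.017 and 0, and 49.3%, 48.6% and 49.8% of genes had an estimate above 0. Of the wider lists described below, other Bcl2 family genes had 63.6%, 72.7% and 63.6% above 0, with medians of 0.19, 0.17 and 0.19. Upstream regulators had 60%, 55% and 55% above 0, and the mitochondrial pathway and caspases 58.3%, 66.7% and 50%. A lean above 0 was thus not particular to the pro-death members. The medians of the members rest on few genes and shared WT libraries, and none of these members passed the test.

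The ratio of Bax to each pro-survival transcript was taken within each library, as log2 of CPM plus 0.5, which leaves out differences in library size. For Bax to Bcl2 it was 4.04, 3.81 and 6.07 in WT, 5.53, 6.44 and 5.45 in HxD, 4.88, 5.14 and 8.05 in KO, and 6.25, 5.76 and 6.84 in V. WT1 and WT2 were lower than all 9 mutant libraries, and WT3 lay within the range of each mutant group. For Bax to Bcl2l1 the values were 0.86, 0.83 and 1.83 in WT, 1.95, 1.69 and 1.56 in HxD, 1.91, 1.52 and 1.67 in KO, and 2.35, 1.36 and 1.61 in V, with the same split of the WT libraries. The group means of Bax to Bcl2l1 exceeded WT by 0.56, 0.53 and 0.60 log2 units in HxD, KO and V, beside SDs of 0.57 in WT, 0.20 in HxD, 0.19 in KO and 0.51 in V. For Bax to Mcl1 the values were -0.58, -0.36 and 0.0034 in WT, 0.35, 0.15 and -0.32 in HxD, 0.29, -0.17 and -0.22 in KO, and 0.11, -0.089 and -0.028 in V. WT1 and WT2 again lay below all mutant libraries and WT3 among them. The group means exceeded WT by 0.37, 0.28 and 0.31, beside an SD of 0.29 in WT, and these were the smallest differences of the 3 ratios. WT3 also had the lowest meiotic sum of the WT group, 1655 CPM beside 3666 in WT1 and 2013 in WT2. Among genes averaging 1 to 5 CPM, 20.8% were at 0 in WT3, beside 16.2% in WT1 and 13.2% in WT2. Whether either difference bears on the ratios was not tested. Being scores over chosen members, the ratios are given without a test.

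**Figure D3:**
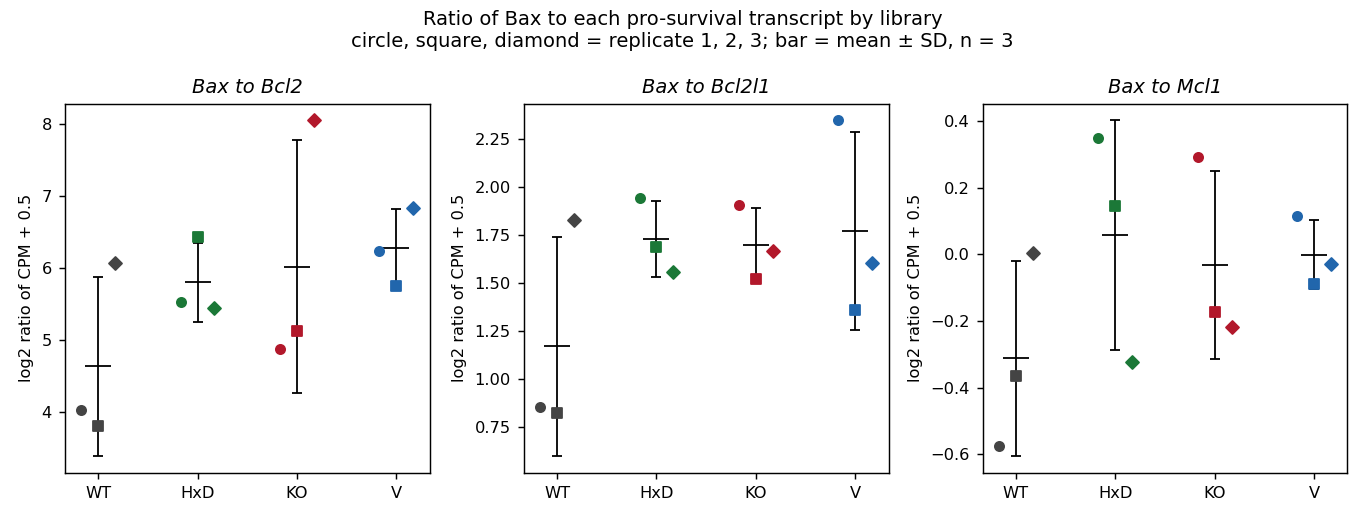
log2 ratio (y axis) of Bax to Bcl2, Bcl2l1 and Mcl1, each as CPM + 0.5, in every library by group (x axis), with mean ± SD (n = 3). WT1 and WT2 lie below all mutant libraries in all 3 panels and WT3 lies among them.

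No difference among the 3 mutants was detected in this family. An F test of any difference among HxD, KO and V (edgeR, with 2 degrees of freedom) called 0 of 10 members, and 0% of all genes. At an unadjusted p under 0.05 it also listed 0 members, with 2.88% of all genes, and the members' unadjusted p ran from 0.474 for Mcl1 to 0.928 for Pmaip1. DESeq2 called 1 gene of the whole table in this comparison and limma-voom 0, and neither called a member.

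How far these data can see depended on abundance. In KO against WT the SE of the log2 fold change was 0.19 for Mcl1, 0.20 for Bax and 0.24 for both Bid and Bcl2l1. It was 0.32 for Bcl2l11, 0.40 for Bad and 0.42 for Bbc3, and rose to 1.25 for Bcl2, 1.29 for Bak1 and 2.09 for Pmaip1. Over the 12 libraries the coefficient of variation was smallest for Mcl1 (16.4%), Bcl2l1 (17.8%), Bid (20.2%) and Bax (22.05%). It was 28.6% for Bcl2l11, 36.8% for Bbc3, 42.3% for Bad, 58.8% for Bak1, 67.8% for Bcl2 and 154.9% for Pmaip1. For the last 3, only a very large difference would have been detectable with this spread between libraries and this number of them.

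**Figure D4:**
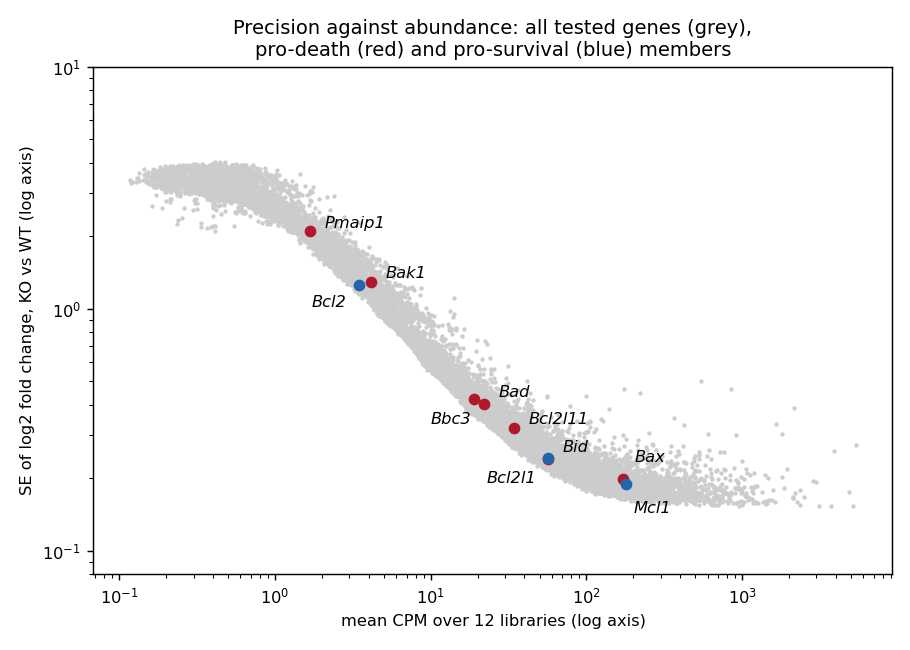
SE of the log2 fold change for KO against WT (y axis, log scale) against mean CPM over the 12 libraries (x axis, log scale) for all 16166 tested genes in grey, pro-death members in red and pro-survival members in blue. Members follow the band of all genes, from 0.19 for Mcl1 to 2.09 for Pmaip1.

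The rest of the pathway was read from 3 wider lists. Other Bcl2 family genes gave 11 tested of 15 listed, with 0 called in any comparison with WT (Bcl2a1a, Bcl2a1b, Bcl2a1d and Bcl2l10 were too low to test). Bcl2l2, encoding the pro-survival protein BCL-W, was at 18.1, 7.79 and 15.8 CPM in WT and 7.12 to 42.5 CPM in the mutants, with 8 of 9 above all WT libraries and HxD1 below them. Its estimate was 0.86 ± 0.37 for the mutant mean on the log2 scale (edgeR adjusted p = 0.308). Bcl2l14 was listed at 0 in all 3 WT libraries and at 0 to 2.91 CPM in the mutants, so no fold is given. Estimates in this list went both ways, with 8 of 11 above 0 in KO. Hrk, named after its values were seen, was low and lay below all WT libraries in all 9 mutant libraries. Its mean was 0.48 CPM over the mutants beside 4.21 CPM in WT (edgeR adjusted p = 0.340).

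Upstream regulators, 20 tested of 20, also had 0 called. Trp53, encoding p53, which drives Bax, Bbc3 and Pmaip1, was at 84.2, 88.2 and 183 CPM in WT, with mutant libraries from 131 to 260 CPM. WT1 and WT2 were below all 9 mutant libraries and WT3 was above 3 of them. The mutant mean differed by 0.76 ± 0.20 on the log2 scale (edgeR adjusted p = 0.0616), and this value sat close to the threshold. It was called in 5 of 8 other settings, where the edgeR, DESeq2 or limma-voom adjusted p ran from 0.000927 to 0.0853. Of 12 fits that each left out 1 library, 2 called it, without WT3 (1.22, edgeR adjusted p = 0.00172) and without HxD1 (0.82, edgeR adjusted p = 0.0304). In these fits the lowest Trp53 estimate was 0.56, without WT1, and the highest edgeR adjusted p was 0.449. Ppp1r13b, encoding ASPP1, a partner that steers p53 toward death genes, was at 73.8, 98.6 and 61.9 CPM in WT and 31.7 to 58.7 CPM in the mutants, without overlap. Its log2 difference was -0.74 ± 0.20 for the mutant mean (edgeR adjusted p = 0.0555), and 6 of 8 other settings called it (adjusted p 0.0128 to 0.155 with edgeR, DESeq2 or limma-voom). It was also called in 2 of 12 fits that each left out 1 library, without WT3 (-0.89, edgeR adjusted p = 0.0297) and without V2 (-0.81, edgeR adjusted p = 0.0411). The weakest Ppp1r13b estimate in these fits was -0.54, without WT2, and the highest edgeR adjusted p was 0.380.

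In the list of the mitochondrial pathway and caspases, 24 of 25 genes were tested and 1 was called, Vdac1, which encodes a channel of the outer mitochondrial membrane. Vdac1 was at 38.8, 66.2 and 70.8 CPM in WT, 128, 117 and 111 in HxD, 119, 135 and 119 in KO, and 136, 106 and 103 in V. All 9 mutant libraries were above all 3 WT libraries. It rose by 1.08 ± 0.21 on the log2 scale in KO (edgeR adjusted p = 0.00962) and by 0.97 ± 0.21 in V (0.0499), and in HxD an estimate of 1.02 ± 0.21 missed the threshold (0.0838). Over the mutant mean the rise was 1.02 ± 0.18 (edgeR adjusted p = 0.0028), and the F test did not detect a difference among the mutants (unadjusted p = 0.860). The V call held in 4 of 9 other settings (adjusted p 0.0018 to 0.100 with edgeR, DESeq2 or limma-voom), and the HxD estimate was called in 5 of 9 (0.00139 to 0.226). The call in V held in 3 of 12 fits that each left out 1 library, with an adjusted p of 0.387 without V1 and 0.234 without WT1, while those in KO and for the mutant mean were lost without WT1 (adjusted p 0.0771 and 0.0579). Without HxD1, KO1 and KO3, where KO2 was the only KO library, the KO estimate was 1.20. The HxD estimate was called without WT3 (edgeR adjusted p = 0.0259).

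Apaf1, chosen for mention after its values were seen, acts just after the mitochondrial step as the scaffold of the apoptosome. Apaf1 was at 28.8, 35.9 and 33.3 CPM in WT, 25.8, 47.7 and 60.6 in HxD, 52.99, 72.1 and 63.8 in KO, and 49.9, 61.6 and 48.0 in V. KO and V lay wholly above WT and HxD1 lay below it. The log2 difference was 0.95 ± 0.27 in KO (edgeR adjusted p = 0.0794) and 0.70 ± 0.27 in V (0.367). In KO it was called in 1 of 9 other settings, with no filter on low counts (edgeR adjusted p = 0.0307). Of 12 fits that each left out 1 library, 1 called it, without HxD1 (0.0366), and the highest edgeR adjusted p was 0.315. The mutant mean of 0.70 (edgeR adjusted p = 0.138) was called in 1 of these 12 fits, without HxD1 (0.0437). Its highest edgeR adjusted p among them was 0.506. Without HxD1, KO1 and KO3 the mutant mean was 0.86, with KO2 the only KO library.

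**Figure D5:**
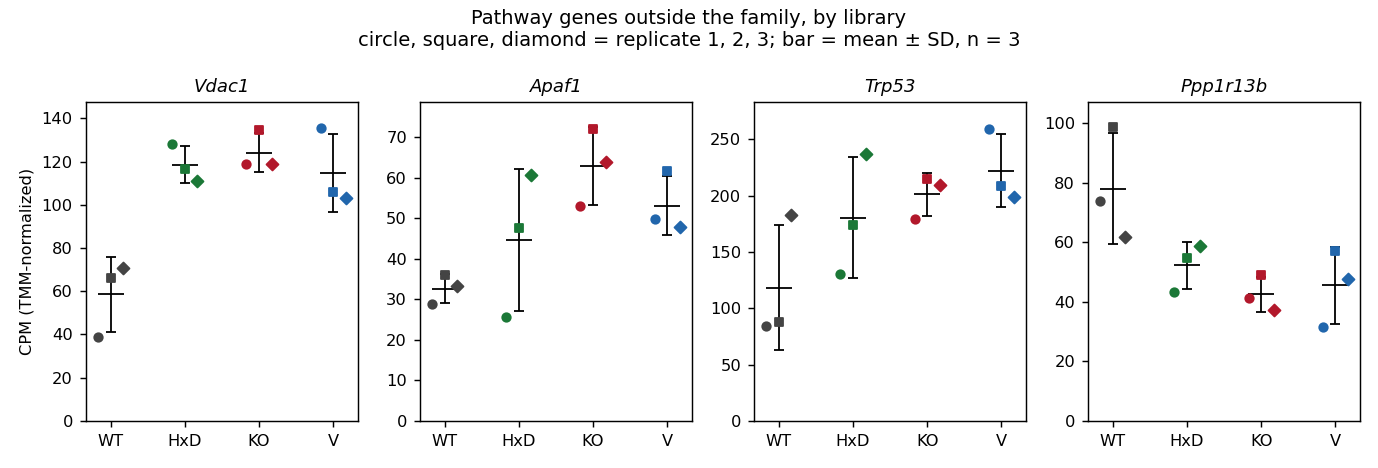
CPM (y axis, linear, TMM-normalized) of Vdac1, Apaf1, Trp53 and Ppp1r13b in each library by group (x axis), with mean ± SD (n = 3). All 9 mutant libraries lie above WT for Vdac1 and below WT for Ppp1r13b, and WT3 stands above the other WT libraries for Trp53.

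Across the 12 libraries, the genes whose log2 CPM followed Bax most closely among 10401 genes were Exosc6, a subunit of the RNA exosome (Pearson r = 0.92), 1810037I17Rik (0.92) and Fgfr1op (0.91). For Bcl2 they were Camkk1 (0.94), Kdm5b (0.90) and Zfp551 (0.90) of 10402 genes. The 12 points share their group structure and the differences in genes detected, and the values are a description of these libraries.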

How the data were processed

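RNA from sorted germ cells (5000 cells a library, poly(A) selection, per the labels' protocols) was sequenced in 12 libraries. The authors deposited whole-number counts per gene, not normalized; featureCounts 2.0.3, STAR 2.7.10b, Trim Galore 0.6.7, FastQC and SAMtools 1.9 are named in the submitters' processing notes, with the builds GRCm39 and mm10, whose roles are not stated. Not given in the sources used here are the gene models, the strand setting and how multi-mapping reads were counted, so reads of overlapping or antisense genes cannot be told apart. No molecular identifiers were described.

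The members and lists were chosen with earlier results of these data known. Groups and replicate numbers came from the sample titles. Counts were fitted with edgeR 4.0.16 in R 4.3.3: TMM, default filterByExpr, 1 quasi-likelihood fit across the 12 libraries on group alone, p adjusted by Benjamini-Hochberg over 16166 genes, called under 0.05. SEs are the estimate over the square root of F. DESeq2 1.42.0 and limma-voom (limma 3.58.1), DESeq2 size factors, no filter, a mean of at least 5 CPM, a replicate block, each library left out and fits of only the compared groups were alternatives. Chosen after seeing the data were a fit without HxD1, KO1 and KO3 and edgeR's newer quasi-likelihood method. The former leaves KO2 as the only KO library. The edgeR script was tested on simulated data. All members were named; from wider lists, genes called in any comparison with WT, and otherwise the 2 with the smallest adjusted p in KO. Levels per kb used exon lengths of GENCODE vM21, which may not be the authors' annotation.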

Additional observations from a re-analysis of the deposited data

How the results depend on the processing

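Under every alternative run, no member tested was called in any comparison. At a mean of at least 5 CPM, Bak1, Bcl2 and Pmaip1 were filtered out and not tested. Of 818 alternative log2 values for the members, 800 kept their direction and 18 reversed. Beyond single left-out libraries, Bak1 reversed in KO (0.28 without HxD1, KO1 and KO3, with KO2 the only KO library). Bcl2l1 reversed in V (-0.016 with DESeq2 size factors and with DESeq2, -0.0064 with a mean of at least 5 CPM). Leaving out 1 library at a time gave ranges that crossed 0 in HxD for Bak1 (-0.32 to 0.23), Bcl2l11 (-0.084 to 0.42), Bbc3 (-0.12 to 0.65), Bcl2l1 (-0.32 to 0.062) and Mcl1 (-0.048 to 0.24), in KO for Bcl2l1 (-0.28 to 0.10) and Mcl1 (-0.030 to 0.35), in V for Bcl2l11 (-0.097 to 0.25) and Bcl2l1 (-0.17 to 0.21), and in the mutant mean for Bcl2l1 (-0.25 to 0.13). For the mutant mean the same fits spanned 0.25 to 0.67 for Bid, 0.50 to 0.80 for Bad, 0.15 to 0.34 for Bcl2l11, 0.13 to 0.84 for Bbc3 and 0.069 to 0.35 for Mcl1. The log2 ratio of Bax to Bcl2 exceeded WT by 0.75 to 1.88 in HxD, 0.37 to 2.10 in KO and 1.23 to 2.36 in V, and that of Bax to Bcl2l1 by 0.39 to 0.89, 0.36 to 0.86 and 0.31 to 0.93.

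Counts of called genes over the whole table moved more. In HxD they were 63 with DESeq2, 15 with limma-voom, 71 with no filter, 1 at a mean of at least 5 CPM, 22 with the replicate block, 28 with the newer quasi-likelihood method, 20 with only the compared groups and 1 to 35 with 1 library left out, beside 5. In KO, beside 197, they were 487 with DESeq2, 464 with no filter, 415 with the newer method, 30 without HxD1, KO1 and KO3, and 31 to 357. In V, beside 25, they were 150, 176, 82 and 16 in the same order, 5 at a mean of at least 5 CPM, 73 with the block and 2 to 110. For the mutant mean, beside 198, DESeq2 gave 454, limma-voom 346, no filter 429, the newer method 493 and left-out libraries 29 to 313. Among mutants, beside 0, DESeq2 size factors and DESeq2 gave 1 each, no filter 15, the block, the newer method and only these groups 2 each, and left-out libraries 0 to 4. The cause was not tested. Same-numbered libraries deviated together no more than others did (r -0.17 to 0.13 over 18 pairs, beside -0.19 to 0.17 over 36). This gives no sign that the numbers pair libraries, but it cannot show that they do not. The block called no member.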
